A study of Mus musculus with 32 samples.

Results

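MHC class II antigen presentation was followed through 10 genes: H2-Aa, H2-Ab1 and H2-Eb1 (chains of the class II molecules themselves), Cd74 (the invariant chain), Ctss (cathepsin S), H2-DMa and H2-DMb1 (chains of the peptide exchange factor H2-M), H2-Oa (a chain of its inhibitor H2-O), Cd86 (a costimulatory ligand) and Ciita (the class II transactivator). They were chosen by name, as the genes to which the array files assign a probe under these symbols; the rule uses no measured value, but the set was proposed with earlier results of these data known. The 10 genes were read by 12 of the 55681 probes on the array. Of the 10, 9 passed the filter on dim probes and were tested among 21710 genes; Ciita did not pass.

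The data are 32 one-colour arrays of liver RNA from male C57/BL6 mice, 1 array per liver, in 8 groups of 4. Without surgery there were livers of mice on a methionine and choline deficient (MCD) diet for 3 weeks and given a dual agonist of the GLP-1 and glucagon receptors, on the MCD diet alone, on a standard diet with the agonist, and on the standard diet alone. The agonist was given every other day at 4.4 mg/kg/day during 2 weeks, on the MCD diet after its first week. The other 4 groups had the same diets and treatments, lost 70% of the liver by partial hepatectomy, went on with diet and agonist, and were sampled 2 weeks after surgery. They therefore also differ from the groups without surgery in the length of diet and treatment. The MCD diet is a model of fatty, inflamed liver in which mice also lose weight. The study's title names this model, the agonist and liver regeneration.

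Class II molecules display peptides from engulfed material to CD4 T cells. The alpha and beta chains assemble in the endoplasmic reticulum with the invariant chain, which fills the groove and directs the complex to endosomes; there cathepsin S trims the invariant chain, H2-M exchanges the remaining peptide for others, and H2-O restrains H2-M. Dendritic cells, B cells and macrophages, which in liver include the resident Kupffer cells, carry most class II; hepatocytes normally carry little. In whole liver RNA, fewer cells of a type and less RNA per cell cannot be told apart.

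Class II genes share promoter elements, an X box and a Y box, on which DNA-bound factors recruit CIITA. RefSeq promoters (250 bases before to 50 after a start, build GRCm38.p6) were given for 6 members. The letters GNAAC, followed after 15 to 30 bases by TGATTGG, which core letters were picked after seeing these sequences, were searched on either strand. They stand in the promoters of 4 of these 6 members, H2-Aa, H2-Eb1, H2-DMb1 and H2-Oa, and are shown here in capitals on each gene's own strand as the elements that class II promoters share:
H2-Aa, chr17:34287859-34287912, minus strand: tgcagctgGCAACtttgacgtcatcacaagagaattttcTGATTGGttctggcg
H2-Eb1, chr17:34305768-34305820, plus strand: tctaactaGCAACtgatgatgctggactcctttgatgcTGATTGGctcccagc
H2-DMb1, chr17:34153089-34153142, plus strand: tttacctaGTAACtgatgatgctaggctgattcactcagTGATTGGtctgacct
H2-Oa, chr17:34092295-34092348, plus strand: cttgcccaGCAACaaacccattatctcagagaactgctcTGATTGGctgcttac
The first base of GNAAC lies at -81, -91, -94 and -76 from the start in H2-Aa, H2-Eb1, H2-DMb1 and H2-Oa, in that order, and 26, 25, 26 and 26 bases separate it from TGATTGG. The pair occurs in 154 of 32851 promoters of this length (0.469%), while TGATTGG alone occurs in 7.82%. Neither the 2 promoters of H2-DMa nor that of Ctss holds the pair, although both genes rose on the MCD diet in the values below. Of the class II genes outside the set, H2-Ob and H2-Eb2 hold it too and H2-DMb2 does not. H2-Ob did not pass on that diet, and H2-Eb2 and H2-DMb2 were not tested. A match is a description of these letters and no evidence of binding.

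Probe positions on build mm9, per the array files, put H2-Aa (chr17:34421285-34421344), H2-Ab1 (chr17:34406296-34406355), H2-Eb1 (chr17:34453075-34453134), H2-DMb1 (chr17:34297109-34297168) and H2-Oa (chr17:34232033-34232092) in the major histocompatibility complex of chromosome 17. The H2-DMa probe is given as chr17:34274300-34274863, longer than its 60 bases. Ctss (chr3:95360245-95360304) and Cd86 (chr16:36603961-36604020) lie elsewhere. Exons and untranslated regions were not looked up. H2-Ab1 was read by 2 probes that overlap by 51 bases and differ there at 1 base, T51C, counted from the first base of the probe used. The difference is shown in capitals in the stretch around it:
H2-Ab1, probe used: aataaacgagacTcagactctg
H2-Ab1, other probe: aataaacgagacCcagactctggtt
Both moved alike, with 1.65 and 1.31 for MCD against standard diet and -3.03 and -2.90 for the diet by agonist interaction (log2), so they are not separate evidence. A second H2-DMb1 probe was well above background on 1 of 32 arrays and was not used. The Ciita probe (chr16:10526568-10526627) was well above background on 10 of 32 arrays, at most 2 of 4 in any group, so the transactivator has no tested value here.

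On each array 44.4% to 69.7% of spots were well above background. The arrays lay on 4 slides with 2 groups each, every group filling 1 row. Without surgery the 2 diets shared a slide, with agonist and without, and after hepatectomy agonist and no agonist shared one; slide row and group cannot be told apart there. The other comparisons crossed slides, among them the 2 diets after hepatectomy and the agonist without surgery, so that slide and group cannot be told apart, and the hepatectomy comparisons also crossed scanners. The submitters' log2 table names 16 of its 32 columns differently from the arrays they match: MCD diet alone and standard diet with agonist are exchanged there, with and without surgery. Groups here follow the array files. Under the table's names the MCD and agonist comparisons change places, while the diet by agonist interaction is the same under both. The diet by hepatectomy interaction without agonist likewise changes places with the agonist by hepatectomy interaction on the standard diet. Which naming is right was not settled.

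Levels below are log2 processed signals minus the 75th percentile of the array, so that 1 unit is a doubling, and levels of different genes are not compared. Changes are log2 differences ± SE from 1 limma fit over the 8 groups, n = 4 livers a group. A gene rose or fell if its p, adjusted over 21710 genes, was under 0.05. Counts of members under other processing, or with an array left out, stand without the share of all genes unless it is given. Such counts are no result about the members alone.

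H2-Aa, the class II A alpha chain, shows the pattern of the set. Its levels without surgery were -0.18, 0.10, -0.72 and 0.67 in agonist-treated MCD livers, 2.21, 1.37, 2.42 and 1.56 in MCD livers, 0.83, 0.97, 2.39 and 1.12 in agonist-treated standard-diet livers, and 0.51, 0.36, -0.82 and -0.17 in standard-diet livers. Every MCD liver and every agonist-treated standard-diet liver was above every standard-diet liver, while agonist-treated MCD livers overlapped the standard-diet livers. After hepatectomy the levels were 0.71, 0.25, 1.39 and 0.98 in agonist-treated MCD livers, 2.10, 1.99, 1.45 and 1.07 in MCD livers, 1.08, 1.20, 1.11 and 1.21 in agonist-treated standard-diet livers, and 3.24, 1.79, 1.10 and 1.59 in standard-diet livers. By group mean the order of H2-Aa was standard diet after hepatectomy, MCD, MCD after hepatectomy, agonist on standard diet, the same after hepatectomy, agonist on MCD after hepatectomy, standard diet, and agonist on MCD diet. Of the steps between neighbours in this order, 1 exceeded the SD of both, that of 0.86 between agonist-treated MCD livers after hepatectomy and standard-diet livers. Standard-diet livers or agonist-treated MCD livers were lowest for each of the 9 genes.

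**Figure D1:**
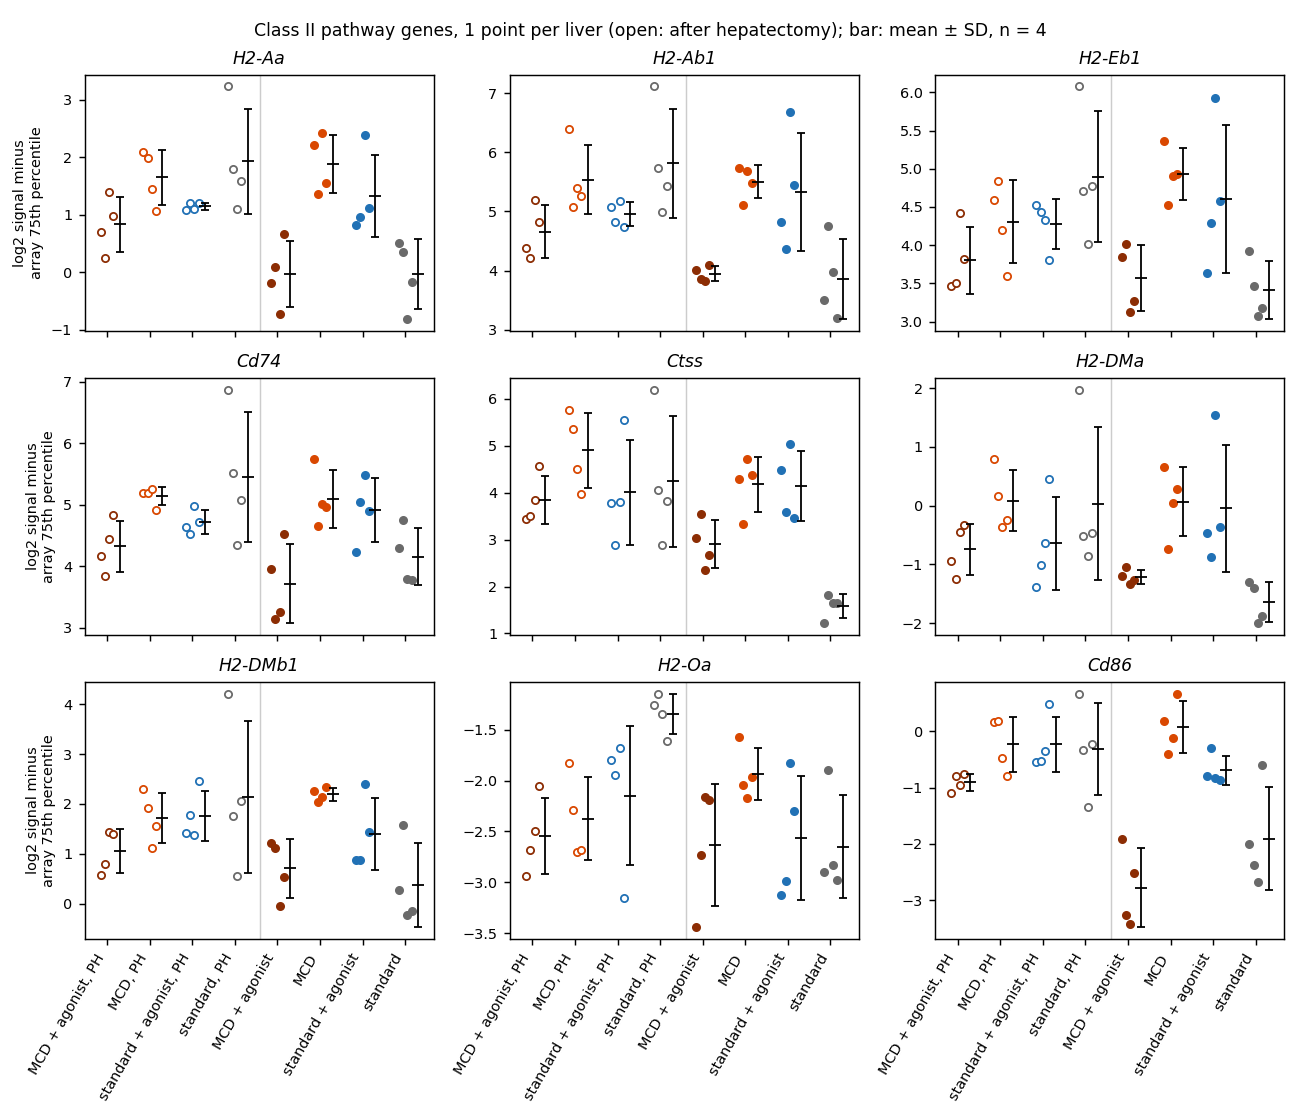
Level of each tested class II pathway gene in all 32 livers (log2 processed signal minus the array's 75th percentile; open points after hepatectomy, filled points without; bars are mean ± SD, n = 4). For all 9 genes the lowest group mean is that of agonist-treated MCD livers or of standard-diet livers, both without surgery, and 1 standard-diet liver after hepatectomy is the highest of its group for 8 of the 9.

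On the MCD diet without agonist, 7 of the 9 tested genes rose against the standard diet and none fell. Over all genes 10.7% rose and 15.3% fell, and the median change was 1.71 for the 9 genes and -0.13 for all genes. The class II chains H2-Aa (1.92 ± 0.40, 3.78-fold, adjusted p = 0.000965), H2-Ab1 (1.65 ± 0.41, adjusted p = 0.0045) and H2-Eb1 (1.52 ± 0.40, adjusted p = 0.00572) rose. H2-Ab1 levels were 5.73, 5.11, 5.69 and 5.49 in MCD livers and 3.50, 4.76, 3.98 and 3.19 in standard-diet livers, without overlap. Both H2-M chains rose, H2-DMa by 1.71 ± 0.50 (adjusted p = 0.0122) and H2-DMb1 by 1.82 ± 0.50 (adjusted p = 0.00893). Cathepsin S changed most: Ctss measured 4.29, 3.34, 4.72 and 4.37 in MCD livers against 1.22, 1.83, 1.66 and 1.64 in standard-diet livers, a rise of 2.59 ± 0.54 (6.03-fold, adjusted p = 0.00101). Cd86, which gives T cells their second signal, measured 0.19, -0.41, -0.11 and 0.67 in MCD livers and lay between -2.67 and -0.60 in standard-diet livers. That is a rise of 1.99 ± 0.40 (adjusted p = 0.000682), and the groups did not overlap although 1 standard-diet liver lay close to the MCD range. The invariant chain Cd74 (0.94 ± 0.38, adjusted p = 0.068) and H2-Oa (0.72 ± 0.34, adjusted p = 0.112) did not pass the test. The groups did not overlap for 7 of the 9 genes, against 27.9% of all genes.

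With arrays scaled by their median in place of the 75th percentile, the median change of all genes was 0.23 and not -0.13, with 4423 genes up and 1227 down against 2320 up and 3328 down. All 9 members then rose. Of the 9, the submitters' values gave 2 that rose under their own column names and 6 once columns were renamed after their best-matching arrays.

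With the agonist on the standard diet, 4 of the 9 genes rose and none fell (3.31% and 3.21% of all genes), with a median change of 1.22 against -0.01 over all genes. Ctss measured 4.48, 3.58, 5.03 and 3.46 in agonist-treated livers and 1.22, 1.83, 1.66 and 1.64 in untreated ones, a rise of 2.55 ± 0.54 (5.86-fold, adjusted p = 0.00669). H2-Ab1 (1.47 ± 0.41, adjusted p = 0.0319), H2-Aa (1.36 ± 0.40, adjusted p = 0.04) and H2-DMa (1.60 ± 0.50, adjusted p = 0.0496) also rose. H2-Eb1 (1.20 ± 0.40, adjusted p = 0.0647) and Cd86 (1.22 ± 0.40, adjusted p = 0.0628) did not pass, nor did H2-DMb1 (1.02 ± 0.50), Cd74 (0.76 ± 0.38) and H2-Oa (0.09 ± 0.34). Replicate 3 of the treated group was the highest of its group for 8 of the 9 genes; without it Ctss alone passed (2.25, adjusted p = 0.0327), and H2-Aa stood at 1.00. Without replicate 1, 3 or 4 of the standard-diet livers, or replicate 4 of the treated ones, 2 passed. MCD against standard diet and agonist against none on the standard diet share the standard-diet livers, so the likeness of their values is not independent evidence. Under normexp background correction, quantile normalization, no filter on dim probes, or a fit to these 2 groups alone, 1 of the 9 rose, Ctss each time. Under median scaling 5 rose (970 genes up and 297 down, against 718 and 696).

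On the MCD diet the agonist had the opposite direction. Here 6 of the 9 genes fell and none rose (4.39% of all genes fell and 8.88% rose), with a median change of -1.38 against 0.14. Cd86 measured -1.91, -3.26, -3.42 and -2.52 in agonist-treated MCD livers, where 2 of the 4 arrays were well above background, and 0.19, -0.41, -0.11 and 0.67 in MCD livers, where all were. It fell by 2.86 ± 0.40 on the log2 scale (7.24-fold lower, adjusted p = 0.000314), with a wide gap between the groups. H2-Aa (-1.92 ± 0.40, adjusted p = 0.00326), H2-Ab1 (-1.56 ± 0.41, adjusted p = 0.0139) and H2-Eb1 (-1.36 ± 0.40, adjusted p = 0.0223) fell. H2-Ab1 lay between 3.82 and 4.09 in agonist-treated MCD livers and between 5.11 and 5.73 in MCD livers, without overlap. The invariant chain Cd74 (probe at chr18:60972075-60972132) fell too. It measured 3.96, 3.15, 3.25 and 4.52 in agonist-treated MCD livers and 5.75, 4.65, 5.02 and 4.96 in MCD livers (-1.38 ± 0.38, adjusted p = 0.0174). H2-DMb1 fell by 1.48 ± 0.50 (adjusted p = 0.0487). Ctss (-1.28 ± 0.54, adjusted p = 0.112), H2-DMa (-1.28 ± 0.50, adjusted p = 0.083) and H2-Oa (-0.69 ± 0.34, adjusted p = 0.165) did not pass. The groups did not overlap for 7 of the 9 genes, against 18.4% of all genes. Leaving out replicate 1 of the MCD livers, or replicate 3 of the agonist-treated ones, left 3 of the 9 called. Under median scaling 7 fell (445 genes up and 2181 down, against 1928 and 952).

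Between the agonist-treated groups, 4 of the 9 genes were lower on the MCD diet than on the standard diet (7.07% of all genes fell and 8.1% rose): Cd86 (-2.08 ± 0.40, adjusted p = 0.000726), H2-Aa (-1.36 ± 0.40, adjusted p = 0.0196), H2-Ab1 (-1.39 ± 0.41, adjusted p = 0.0219) and Cd74 (-1.20 ± 0.38, adjusted p = 0.0302). Replicate 3 of the agonist-treated standard-diet livers carried part of this: without it only Cd86 passed (-2.13, adjusted p = 0.00174), and 2 genes passed without replicate 3 of the agonist-treated MCD livers. Under normexp 2 of the 9 fell, Cd86 and Cd74, and in a fit to these 2 groups alone, or with the submitters' columns renamed after their matching arrays, 1 fell, Cd86. Under median scaling 4 fell (1018 genes up and 1860 down, against 1758 and 1534). The Cd86 values again include dim ones, with 2 of 4 agonist-treated MCD arrays well above background.

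The direction of the agonist's change thus differed between diets, and the difference itself passed the test for 8 of the 9 genes. This diet by agonist interaction is the change on the MCD diet minus that on the standard diet; over all genes 4.94% were below 0 and 6.15% above. It was -4.07 ± 0.57 for Cd86 (adjusted p = 0.000172), -3.83 ± 0.77 for Ctss (adjusted p = 0.00255), -3.28 ± 0.57 for H2-Aa (adjusted p = 0.000898) and -3.03 ± 0.59 for H2-Ab1 (adjusted p = 0.00187). For Cd86 this rests partly on dim values in agonist-treated MCD livers, as given above. H2-DMa (-2.87 ± 0.70), H2-Eb1 (-2.56 ± 0.56), H2-DMb1 (-2.51 ± 0.71) and Cd74 (-2.14 ± 0.54) followed, with adjusted p of 0.00977, 0.00465, 0.0226 and 0.0115. H2-Oa, the H2-O chain, was apart with -0.78 ± 0.47 (adjusted p = 0.294). The median was -2.87 against 0.18 over all genes. An effect of the slide that adds the same amount to both of its groups cancels in this interaction. It was the same under either naming of the exchanged columns, and with the submitters' values 5 of the 9 passed, H2-Aa, H2-Ab1, H2-DMa, Ctss and Cd86. Under median scaling 8 passed (262 genes up and 2462 down, against 1336 and 1072).

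**Figure D2:**
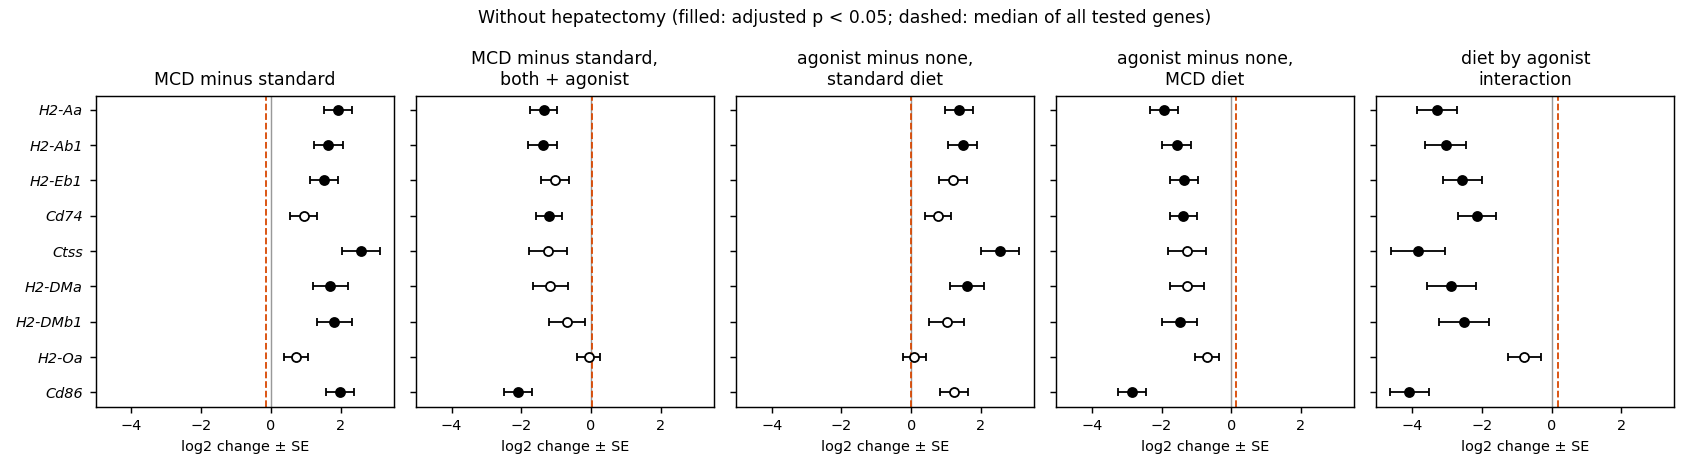
Log2 change ± SE of each tested gene without hepatectomy, from the limma fit (filled points passed adjusted p under 0.05; the dashed line is the median of all tested genes). MCD against standard diet and the agonist on the standard diet lie to the right of 0, the agonist on the MCD diet to the left, and 8 of the 9 interactions are filled.

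Standard-diet livers 2 weeks after hepatectomy were higher for all 9 tested genes than standard-diet livers without surgery (6.33% of all genes rose and 7.44% fell), with a median change of 1.68 against -0.07. Ctss rose by 2.65 ± 0.54 (adjusted p = 0.00212), and H2-Aa (1.96 ± 0.40, adjusted p = 0.00212) and H2-Ab1 (1.96 ± 0.41, adjusted p = 0.00278) followed. H2-Oa, which did not pass in the comparisons above, rose by 1.31 ± 0.34 (adjusted p = 0.0101). Its levels were -1.26, -1.15, -1.35 and -1.61 in standard-diet livers after hepatectomy and -2.90, -1.90, -2.83 and -2.98 without, with no overlap. Cd74 rose by 1.30 ± 0.38 (adjusted p = 0.0234), but measured 6.87, 5.52, 4.34 and 5.08 after hepatectomy against 4.30, 4.76, 3.80 and 3.78 without, with overlap. Replicate 1 after hepatectomy was the highest of its group for 8 of the 9 genes, and without it 4 of 9 passed: Ctss (2.00), H2-Ab1 (1.53), H2-Aa (1.52) and H2-Oa (1.28). A fit to these 2 groups alone also left those 4 called. The median scaling called all 9 (1726 genes up and 822 down, against 1374 and 1615).

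None of the 9 passed in MCD livers after hepatectomy against without (6.46% of all genes rose and 2.99% fell), with changes from -0.62 in H2-Eb1 to 0.72 in Ctss. None passed in agonist-treated standard-diet livers either (2.97% and 4.41% of all genes), with changes from -0.59 in H2-DMa to 0.46 in Cd86. In agonist-treated MCD livers Cd86 rose by 1.87 ± 0.40 (adjusted p = 0.00453) where 3.74% of all genes rose and 6.3% fell: it measured -1.09, -0.80, -0.96 and -0.76 after hepatectomy and -1.91, -3.26, -3.42 and -2.52 without. Without surgery 2 of the 4 arrays were well above background for Cd86, so this rise rests partly on dim values. The other 8 stood between 0.09 in H2-Oa and 0.94 in Ctss and did not pass, and the median over the 9 was 0.61. Under normexp 4 rose in that group, H2-Aa, H2-Ab1, Cd74 and Cd86. The difference between diets in the change after hepatectomy passed for 3 of the 9, H2-Aa (-2.19 ± 0.57, adjusted p = 0.0356), H2-Eb1 (-2.12 ± 0.56, adjusted p = 0.0396) and H2-Oa (-1.75 ± 0.47, adjusted p = 0.0438), against 0.99% of all genes below 0 and 1.61% above. Without replicate 1 of the standard-diet livers after hepatectomy none of the 3 passed, with H2-Aa at -1.75, H2-Eb1 at -1.72 and H2-Oa at -1.72. None passed either without replicate 3 of the standard-diet livers, replicate 1 or 3 of the MCD livers, replicate 4 of the standard-diet or replicate 3 or 4 of the MCD livers after hepatectomy, 1 passed without replicate 4 of the standard-diet or of the MCD livers, 5 passed without replicate 2 of the standard-diet livers, and 6 passed without replicate 3 of the standard-diet livers after hepatectomy. Under the agonist this difference between diets called none of the 9 (0.332% of all genes). The difference that the agonist made to the change after hepatectomy called none of the 9 on the standard diet (0.276% of all genes) or on the MCD diet (1.11%).

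**Figure D3:**
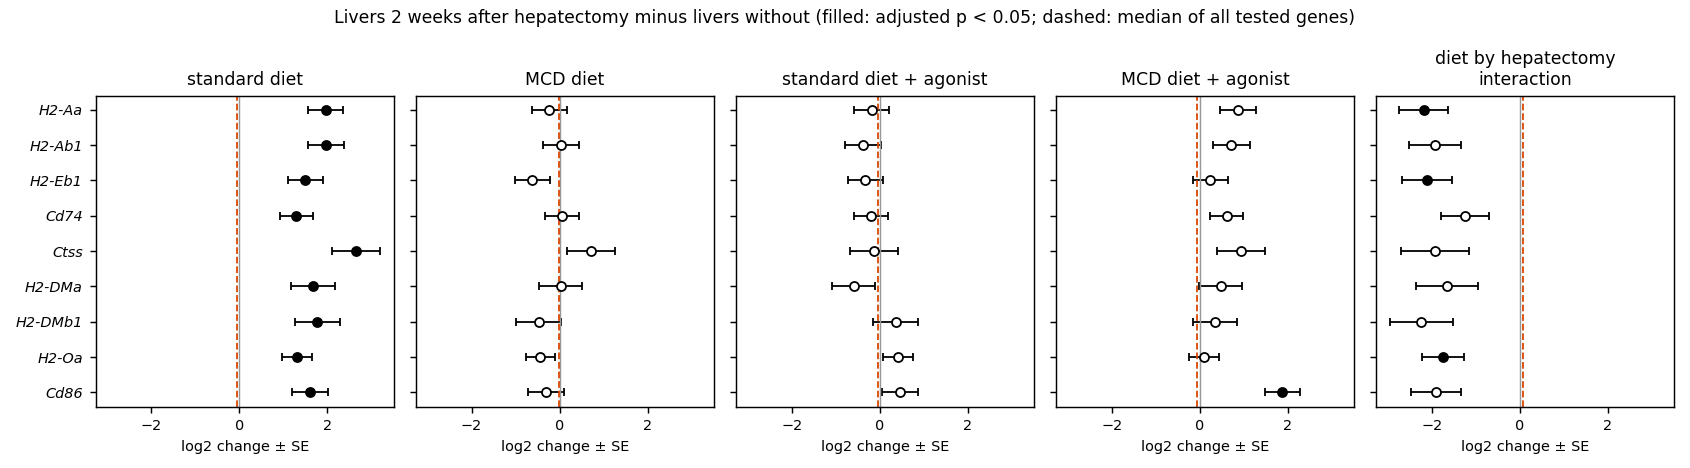
Log2 change ± SE of each tested gene after hepatectomy minus without, in each diet and treatment, and the diet by hepatectomy interaction (filled points passed adjusted p under 0.05; the dashed line is the median of all tested genes). All 9 points are filled on the standard diet, 1 on the MCD diet with agonist and none in the other 2 groups.

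Among untreated livers after hepatectomy H2-Oa was the only member called between the MCD and the standard diet (-1.03 ± 0.34, adjusted p = 0.0433; 5.99% of all genes fell and 5.52% rose). It did not pass under normexp, median scaling, quantile normalization, no filter, the replicate block or either form of the submitters' table. None of the 9 passed between the agonist-treated groups (3.9% of all genes fell and 4.33% rose). The agonist against none called 2 of 21710 genes on the standard diet (0.00921%) and 88 on the MCD diet (0.405%), none of them a member. On the MCD diet the members' changes ran from -1.06 in Ctss to -0.17 in H2-Oa, and on the standard diet from -0.87 in H2-Ab1 to 0.08 in Cd86. The diet by agonist interaction after hepatectomy called none of the 9 and 1 gene in all (0.00461%), with values from -0.83 in Ctss to 0.64 in H2-Oa.

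The wider pathway did not move as a block. For each list below, the shares of all genes that rose and fell are those given above for the same comparison. Of the other class II genes H2-Ob, the partner chain of H2-Oa, was the only one tested and did not pass on the MCD diet without surgery (-0.19, adjusted p = 0.725). Among untreated livers after hepatectomy H2-Ob was lower on the MCD diet than on the standard diet (-1.23) and passed, as H2-Oa did. It was well above background on at most 2 of 4 of these MCD arrays, so its change rests partly on dim values. The H2-Oa call did not hold under several alternatives, as given above. The genes H2-Ea, H2-Eb2 and H2-DMb2 were well above background on at most 1 of 32 arrays. Among 14 tested regulators of class II transcription and interferon gamma signalling, 2 rose and 2 fell on the MCD diet, with a median change of 0.05. These counts are near the shares of all genes, of which 10.7% rose and 15.3% fell. Ifngr1, a chain of the interferon gamma receptor, rose (0.99 ± 0.25) as did the kinase Jak1 (1.02), while Rfxank (-1.13 ± 0.41) and Nfyb (-0.89 ± 0.25), subunits of the factors that bind the X and Y boxes, fell. None of the 14 passed for the agonist on either diet, and Ifngr1 (-1.30) and Irf8 (-1.84), a transcription factor of macrophages and dendritic cells, passed in the diet by agonist interaction.

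Of 11 genes of endosomal proteases and class II turnover, 2 rose on the MCD diet: Ctsl, which encodes cathepsin L (1.38 ± 0.23, adjusted p = 8.8e-05), and Lgmn, an asparaginyl endopeptidase (1.19 ± 0.37, adjusted p = 0.017). Their list's median change was 0.26. With the agonist on the standard diet 1 rose, Ctsc, which encodes cathepsin C (1.67 ± 0.32, adjusted p = 0.00312), and on the MCD diet none passed. Ifi30, a thiol reductase of the antigen-processing compartment, stood at 1.04 ± 0.45 on the MCD diet (adjusted p = 0.0878) and did not pass.

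Of 7 tested costimulation genes other than Cd86, 3 rose on the MCD diet: Cd83, a marker of mature dendritic cells (3.17 ± 0.45, adjusted p = 1.5e-05), Cd40 (1.67 ± 0.56, adjusted p = 0.0272) and Icos (1.28 ± 0.38, adjusted p = 0.0146). With the agonist on the MCD diet 4 fell, Cd83 (-2.28 ± 0.45), Cd40 (-1.96 ± 0.56), Icos (-1.34 ± 0.38) and Cd80 (-1.09 ± 0.33). Cd40 was well above background on 1 of 4 and Icos on 2 of 4 agonist-treated MCD arrays, and Cd40 on 2 of 4 standard-diet arrays, so that their changes rest partly on dim values; with the agonist on the standard diet Icos rose (1.62 ± 0.38). The interaction passed for 3, Cd83 (-3.44), Cd40 (-3.07) and Icos (-2.95). Of the 7, Cd40 passed the filter on dim probes only through groups on the MCD diet. Being high on that diet was thus a condition for its entry, and its calls are no separate support.

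MHC class I presentation, which shows peptides from inside the cell to CD8 T cells and is run by nearly every cell, gave other values. On the MCD diet 2 of 14 tested genes fell, the chaperones Pdia3 (-1.02) and Calr (-0.77), and none rose. Over all genes 15.3% fell, so the count of 2 is near that share. The list's median was -0.29. None of the 14 passed for the agonist on either diet or in the interaction, whose median over the list was -0.19. Between the agonist-treated groups 4 fell on the MCD diet, Pdia3 (-1.24) and the immunoproteasome subunits Psmb8 (-1.45), Psmb9 (-1.27) and Psmb10 (-0.99).

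Kupffer cell and pan-leukocyte markers moved with the class II genes, and dendritic cell markers did so in part. The part of these cells in the result was not tested. Kupffer cell markers rose in 4 of 7 on the MCD diet, including Vsig4, a complement receptor of resident macrophages (2.30 ± 0.45), and the lectin Clec4f (1.29 ± 0.36). With the agonist on the standard diet 5 of 7 rose and on the MCD diet 5 of 7 fell, with Vsig4 at 2.11 ± 0.45 and -1.93 ± 0.45. All 7 rose in standard-diet livers after hepatectomy. In the diet by agonist interaction 6 of 7 passed, Vsig4 at -4.04 ± 0.63. The mean level over these 7 markers ran from 1.24 to 2.11 in agonist-treated MCD livers, 2.05 to 3.80 in MCD livers, 2.97 to 3.51 in agonist-treated standard-diet livers and 1.03 to 1.98 in standard-diet livers. The class II mean over the 9 genes ran from 0.54 to 1.09, 1.98 to 2.76, 1.61 to 2.98 and 0.44 to 1.23 in the same 4 groups. Both means were thus lowest in agonist-treated MCD and in standard-diet livers, and neither of these 2 groups overlapped the agonist-treated standard-diet livers.

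Dendritic cell markers rose in 7 of 11 on the MCD diet, Clec10a (1.97), Itgax (2.90), Cd209a (2.32) and Clec9a (2.27) among them. Of the 11, Irf4 passed the filter on dim probes only through the MCD livers without agonist or surgery. Between the agonist-treated groups 2 of 11 were lower on the MCD diet. The median there was -0.07, against -1.20 for the class II genes and -1.74 for Kupffer cell markers. Over the 32 livers r with the class II profile described below ran from -0.38 (Zbtb46) to 0.79 (Batf3). With the agonist 4 fell on the MCD diet, where Clec10a was at -1.90 ± 0.32; on the standard diet 3 rose and 1 fell. Of 12 tested markers of recruited macrophages and monocytes 8 rose, such as Trem2 (4.62), and 1 fell on the MCD diet. Among the 12, Gpnmb passed the filter on dim probes only through groups on that diet. None passed for the agonist on the MCD diet, with a median of -0.98. Pan-leukocyte genes rose in 4 of 5 on the MCD diet and in 2 of 5 with the agonist on the standard diet, and fell in 2 of 5 with the agonist on the MCD diet; Tyrobp, an adaptor of myeloid receptors, stood at 2.64, 2.26 and -1.35.

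B cell markers did not follow. Of 7 tested, 1 fell on the MCD diet, Cr2 (-1.23), and none rose, with a median of -0.69. Over all genes 15.3% fell, so the count of 1 is near that share. With the agonist on the standard diet 1 rose, again Cr2 (1.53). None passed for the agonist on the MCD diet or in the interaction. The mean level of the 7 tested markers ran from -3.07 to -2.27 in MCD livers and from -1.96 to -1.53 in standard-diet livers. The B cell genes Pax5 and Blk were well above background on 4 and 1 of 32 arrays and were not tested.

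Stellate cell, plasma cell and neutrophil lists had medians of the same signs, and so had the T cell list, with 1 median of only 0.01. The endothelial, cholangiocyte and hepatocyte lists did not. Sinusoidal endothelial markers had medians of 0.05 on the MCD diet and -0.06 with the agonist on the standard diet. Cholangiocyte markers had -0.02 and -0.07. Hepatocyte markers had -0.56 and 0.15, and 0.42 with the agonist on the MCD diet. Stellate cell markers had a median of 1.30 on the MCD diet (3 of 8 rose), 0.43 with the agonist on the standard diet (none passed), -0.83 with the agonist on the MCD diet (3 fell) and 0.48 after hepatectomy on the standard diet (2 rose), and 3 passed in the diet by agonist interaction. Plasma cell markers had medians of 1.00, 0.12, -1.57 and 0.53 in these comparisons, with 2 of 5 up on the MCD diet and 3 down with the agonist there. Of these 5, Tnfrsf17 and Prdm1 passed the filter on dim probes only through the MCD livers without agonist or surgery. Tnfrsf17 was well above background on 7 of 32 arrays. Being high in MCD livers was thus a condition for their entry, and these counts are no separate support. Neutrophil markers had medians of 0.95, 0.51, -0.33 and 1.32, with 2 of 8 up on the MCD diet and 2 after hepatectomy. Among the 8, Mpo passed the filter only through MCD livers without agonist, with and without surgery. T cell markers had smaller medians of the same signs (0.27, 0.01, -0.15 and 0.38), but those that passed were split. Of 8 tested, 2 rose and 2 fell on the MCD diet, and 1 rose and 1 fell with the agonist on the standard diet. With the agonist on the MCD diet 1 rose and 2 fell. Cd8b1 also passed the filter on dim probes only through the MCD livers without agonist or surgery. The direction of the medians was thus shared by some lists other than those of macrophages and dendritic cells, while the T cell genes called were mixed.

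**Figure D4:**
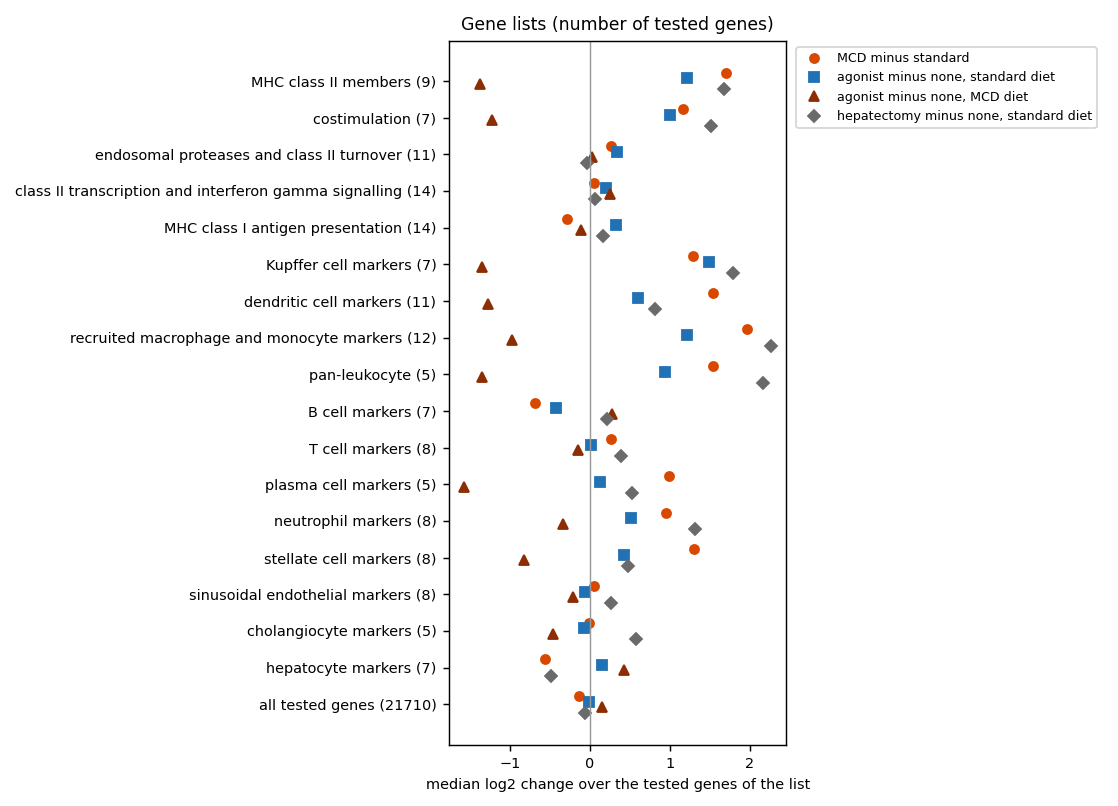
Median log2 change of each gene list (number of tested genes in brackets) in 4 comparisons. The class II genes, costimulation genes, and the Kupffer cell, dendritic cell, recruited macrophage, pan-leukocyte, stellate cell, plasma cell, neutrophil and, with small medians, T cell markers lie right of 0 for the MCD diet, the agonist on standard diet and hepatectomy on standard diet and left of 0 for the agonist on MCD diet. The class I, class II transcription, endosomal protease, B cell, sinusoidal endothelial, cholangiocyte and hepatocyte lists do not share all of these signs.

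Across the 32 livers the members varied together. Pearson's r between pairs of the 9 genes had a median of 0.78 (36 pairs, 0.26 to 0.89), and 0.61 after each group's mean was removed (-0.27 to 0.82). These are descriptions over the same arrays, which share slide and scaling. Set against a class II profile, the mean of the scaled levels of H2-Aa, H2-Ab1, H2-Eb1 and Cd74, of which those 4 are a part, H2-Aa (r = 0.97) and H2-Ab1 (0.95) came highest, and Cd86 (0.73) and H2-Oa (0.63) lowest. After removal of group means r was 0.34 for Cd86 and 0.93 for H2-Aa. Of all other tested genes with a named symbol the 10 most like the class II profile were Ppfia4 (r = 0.88), Itgb7 (0.86), Ncaph (0.85), Phf11a (0.85), Casp1 (0.85), Cd48 (0.85), Nckap1l (0.85), Evl (0.85), Tpx2 (0.84) and Nfam1 (0.84). Several of these are leukocyte genes, such as the integrin chain Itgb7, Cd48 and Nckap1l, whereas Ncaph, a condensin subunit, and Tpx2, a spindle protein, belong to cell division.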

How the data were processed

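Liver RNA was hybridised with Cy3 to Agilent arrays. The deposited scanner files hold processed signals as linear intensity, background-subtracted by Feature Extraction 10.7.3.1, per the file headers. The deposited table is on the log2 scale, from its values; limma was used, per the submitters' processing notes, with no version given. It served as an alternative, within the sets with and without surgery only.

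Each array's log2 processed signals were shifted by its 75th percentile before testing. Control spots and 5010 outlier spots (0.264%) were left out. Probes had to be well above background throughout at least 1 group of 4 arrays (30139 passed), and where several probes passed, as for 5890 of 21710 genes, the brightest on average stood for the gene. Symbols were updated by RefSeq accession where possible. Each contrast came from 1 limma fit over 8 groups (R 4.3.3, limma 3.58.1), with Benjamini-Hochberg adjustment over all genes. The fit was also run on simulated independent normal values. These held no slide, scanner or array effects, so that run cannot speak to such effects here. The number of arrays limits the precision. The series' text says the livers were independent.

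Members and gene lists were chosen with earlier results of these data known. Named genes are the members, up to 4 genes of each list with the smallest adjusted p in a described comparison, markers at the extremes of level, and the 10 genes most like the class II profile. Pax5 and Blk are named for their low detection, and values of a named gene are also given in other comparisons. Alternatives were normexp (offset 50), scaling by the median, quantile normalization, dim probes kept, the mean over probes, single probes, outliers kept, only the groups compared, a replicate block and each array left out.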

Additional observations from a re-analysis of the deposited data

Results flagged for a closer look

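Within groups, 2 of 69 sets of 4 values that could be tested (2.90%) held a liver far from the other 3, and chance flags about 1 in 20. H2-DMa, a chain of H2-M, measured 1.97 in replicate 1 of the standard-diet livers after hepatectomy, against -0.85 to -0.46 in the other 3. Cd86, the costimulatory ligand, measured -0.296 in replicate 2 of the agonist-treated standard-diet livers, against -0.857 to -0.788 in the other 3.

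The agonist's change without surgery differed between the MCD and the standard diet for 8 genes, by -4.07 in Cd86, -3.83 in Ctss, -3.28 in H2-Aa, -3.03 in H2-Ab1, -2.87 in H2-DMa, -2.56 in H2-Eb1, -2.51 in H2-DMb1 and -2.14 in Cd74 on the log2 scale (limma interaction term, adjusted p from 0.000172 to 0.0226). The change after hepatectomy differed between the MCD and the standard diet for 3 genes, by -2.19 in H2-Aa (adjusted p = 0.0356), -2.12 in H2-Eb1 (adjusted p = 0.0396) and -1.75 in H2-Oa (adjusted p = 0.0438). Under the submitters' column names this would be a difference made by the agonist on the standard diet. None of these 3 passed without replicate 1 of the standard-diet livers after hepatectomy, without any of 6 other single arrays, or without the filter on dim probes, and 1, H2-Oa, passed in a fit to the groups compared alone.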

How the results depend on the processing

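Of 162 member changes tested, 43 passed; under the alternatives they gave 879 values, of which 719 passed in the same direction, 160 no longer passed and 0 turned round. In every alternative 14 of the 43 passed, and 17 others passed in at least 1. Counts of members called moved as follows, of 9 unless stated, and the cause was not tested. The share of all genes called under each alternative does not stand beside them, so they are no result about the members alone. MCD against standard diet (7) gave 2 in the deposited table. The same diets with agonist (4) gave 2 under normexp, 1 with only the groups compared and 1 in the table placed by match. The agonist on the standard diet (4) gave 1 under normexp, quantile normalization, no filter and only the groups compared, and 2 in the table placed by match. The agonist on the MCD diet (6) gave 1 in the deposited table. Hepatectomy on the standard diet (9) gave 4 with only the groups compared, and on the MCD diet with agonist (1) gave 4 under normexp. The 2 diets after hepatectomy (1) gave 0 under normexp, median scaling, quantile normalization, no filter, the replicate block and both forms of the table. The diet by agonist interaction (8) gave 5 in both forms of the table. The diet by hepatectomy interaction (3) gave 0 without the filter and 1 with only the groups compared. The agonist by hepatectomy interaction on the MCD diet (0) gave 1 under normexp, no filter, the replicate block and only the groups compared.

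Leaving out 1 array at a time gave 7 to 9 for MCD against standard diet, 1 to 5 for the same with agonist, 0 to 1 for the same after hepatectomy, 1 to 4 for the agonist on the standard diet, 3 to 6 for the agonist on the MCD diet and 4 to 9 for hepatectomy on the standard diet. It gave 7 to 8 for the diet by agonist interaction, 0 to 6 for the diet by hepatectomy interaction, and 0 to 1 for the agonist by hepatectomy interaction on either diet. Replicate numbers were not used to pair the livers in the main fit. Over 112 same-number pairs r ran from -0.205 to 0.442 (median 0.017), and 12 of 32 arrays matched their own number best. These values do not settle whether same-numbered arrays go together. Each replicate number is also the array's column on its slide, so the replicate block is equally a block of slide columns. The replicate block moved the 2 counts named with it and, by less than 1.5 times, the agonist on the MCD diet to 5.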
